A study of Mus with 10 samples.

Results

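Caspases are cysteine proteases that cut their substrates after aspartate. 6 caspase genes were followed in liver type 1 innate lymphoid cells (ILC1s): *Casp1*, *Casp2*, *Casp4*, *Casp6*, *Casp8* and *Casp9*. They were taken by gene name from a deposited table of 24564 genes, and all 6 were among the 11463 genes with enough counts to be tested. The question was whether the transcript of any of them differed between ILC1s of mice with and without intact *Ncr1*, which encodes the activating receptor NKp46.

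The study sorted ILC1s, tissue-resident innate lymphocytes, from the livers of male or female C57BL/6 mice of 6 to 8 weeks. 5 libraries were from *Ncr1*+/+ mice (Ncr1-WT in the sample labels). The other 5 were from *Ncr1*gfp/gfp mice (Ncr1-KO in the labels), in which *gfp* replaces *Ncr1* in every cell of the animal. The study calls these mice NKp46-deficient, and reports that a few percent of their ILC1s still stained for NKp46. No mouse was treated. Cells of both genotypes were gated as lineage-negative, NK1.1+, CD49a+ and CD49b-. The last gate was NKp46 staining for *Ncr1*+/+ cells and GFP for *Ncr1*gfp/gfp cells, so that the genotype and this gate cannot be told apart. The study's legends speak of RNA pools, and its methods do not give the mice or the sex behind each library, and p-values therefore measure the spread between libraries, which may be in part technical.

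Cells make caspases as inactive precursors, and large protein platforms bring the precursors together so that they become active. Caspase-8 is activated at death receptors such as Fas, and caspase-9 at the apoptosome that Apaf1 forms when mitochondria release cytochrome c. Both pass the signal on to executioner caspases, which cut the cell's contents during apoptosis. Caspase-2 is activated on the PIDDosome after DNA damage or failed cell division. Caspase-1 and caspase-4, the latter called caspase-11 in older mouse work, are inflammatory caspases. Caspase-1 is activated by inflammasomes and matures IL-1β and IL-18, whereas mouse caspase-4 binds bacterial lipopolysaccharide in the cytosol and cuts gasdermin D, which opens pores in the membrane. Caspase-6 belongs with the executioners.

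Library totals were between 17996935 and 22623133 counts in *Ncr1*+/+ ILC1s and between 15796253 and 21975879 counts in *Ncr1*gfp/gfp ILC1s. All levels are given as CPM (counts scaled to a common library total, with TMM normalization), and 3 counts in a library corresponded to between 0.133 and 0.190 CPM. The targeted gene was examined first. *Ncr1* had 2029 CPM on average in *Ncr1*+/+ ILC1s and between 141 and 356 CPM in *Ncr1*gfp/gfp ILC1s, so that it matched the labels in all 10 libraries. The fit put *Ncr1*gfp/gfp ILC1s at 12.8% of the *Ncr1*+/+ level, and the source of this remaining signal was not tested. All 8 ILC1 markers looked up were present, and without *Ncr1* itself the other 7 summed to between 7483 and 7860 CPM in *Ncr1*+/+ and between 7353 and 7622 CPM in *Ncr1*gfp/gfp ILC1s. Among them *Itga1*, which encodes the gate marker CD49a, was higher in *Ncr1*gfp/gfp ILC1s without overlap, at 971 ± 35.1 against 779 ± 30.4 CPM (SD, n = 5 each, edgeR quasi-likelihood, adjusted p = 0.000481). *Il2rb* was lower there without overlap, at 3424 ± 113 against 3724 ± 142 CPM (adjusted p = 0.117 in the same test). *Tbx21*, *Cxcr6* and *Cd200r1* had log2 fold changes of -0.13, -0.19 and -0.12. *Tnfsf10* and *Klrb1c* had 0.09 and 0.02, and none of these had an adjusted p under 0.05. *Ncr1*+/+ replicate 1 and *Ncr1*gfp/gfp replicate 3 stood apart in 7 hepatocyte markers, which summed to 32.2 and 60.9 CPM there and to between 1.68 and 6.66 CPM in the other libraries. Results that rest on these 2 libraries are therefore given with and without them.

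Only *Casp4* was called among the 6 caspases, and it was lower in *Ncr1*gfp/gfp ILC1s. A gene was called when its adjusted p-value was under 0.05 and its fold change was above 1.5 or below 0.7. Of all tested genes, 0.733% were called in either direction and 0.532% were called with a lower level in *Ncr1*gfp/gfp ILC1s. Calls used the quasi-likelihood F test of edgeR, with p-values adjusted by Benjamini and Hochberg. Without the limit on the fold, *Casp4* was again the only 1 of the 6 under an adjusted p-value of 0.05, against 1.35% of all tested genes. In none of the 6 did every library of one genotype lie outside the range of the other genotype, a pattern that 3.11% of all tested genes showed. The 6 genes were picked with earlier results of these data known, so that the count of 1 in 6 is a description.

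*Casp4*, the gene of the lipopolysaccharide-binding inflammatory caspase, spans chromosome 9, positions 5308849 to 5336791 (plus strand), in the coordinates of the table, whose genome build is not named. It had 24.8, 23.1, 21.7, 18.02 and 23.4 CPM in *Ncr1*+/+ replicates 1 to 5. In *Ncr1*gfp/gfp replicates 1 to 5 it had 19.1, 8.59, 11.3, 12.7 and 11.5 CPM. Of the *Ncr1*gfp/gfp libraries, 4 were below every *Ncr1*+/+ library. The remaining one, *Ncr1*gfp/gfp replicate 1, lay just above *Ncr1*+/+ replicate 4, the lowest of its genotype. The means were 22.2 ± 2.58 CPM in *Ncr1*+/+ and 12.7 ± 3.91 CPM in *Ncr1*gfp/gfp ILC1s (SD, n = 5 each). *Casp4* thus fell to 56.8% of its *Ncr1*+/+ level, a log2 fold change of -0.82 with a standard error of 0.17 (edgeR quasi-likelihood, adjusted p = 0.0139). These values rest on between 188 and 524 counts per library. In bulk samples, fewer cells with the transcript and less transcript per cell cannot be told apart.

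The call of *Casp4* did not hinge on any single library, with a log2 fold change between -1.01 and -0.70 and adjusted p-values between 0.000754 and 0.0416 when each was left out in turn (edgeR quasi-likelihood test). The lower end came from leaving out *Ncr1*gfp/gfp replicate 1. Without both *Ncr1*+/+ replicate 1 and *Ncr1*gfp/gfp replicate 3, the log2 fold change was -0.74 and the adjusted p was 0.0898 in the same edgeR test, so that none of the 6 caspases was called.

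**Figure D1:**
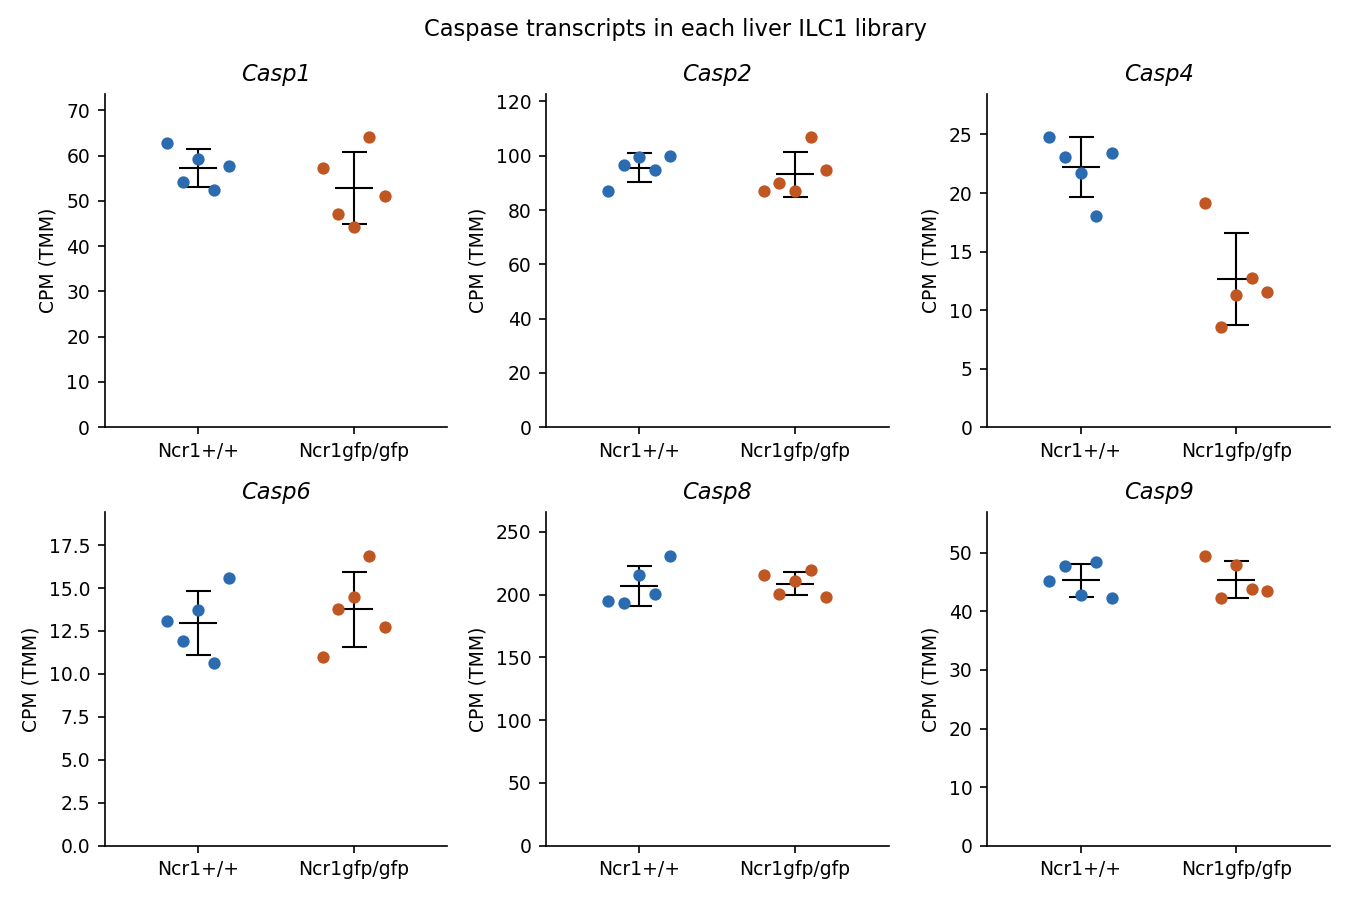
CPM of the 6 caspase genes in each library (points) with the mean and SD of 5 libraries (black), for *Ncr1*+/+ (blue) and *Ncr1*gfp/gfp (orange) ILC1s, each panel starting at 0. In *Casp4*, 4 of the 5 *Ncr1*gfp/gfp libraries lie below all *Ncr1*+/+ libraries, and in the other 5 genes the ranges overlap widely.

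*Casp1*, the inflammasome caspase, lies next to *Casp4* on the same strand, from 5298517 to 5307281, and ends 1568 bases before *Casp4* starts. It had 62.8, 54.1, 59.3, 52.5 and 57.8 CPM in *Ncr1*+/+ replicates 1 to 5 and 57.3, 47.2, 44.3, 64.1 and 51.1 CPM in *Ncr1*gfp/gfp replicates 1 to 5. The highest and the lowest library were both *Ncr1*gfp/gfp. The log2 fold change was -0.12, with a 95% confidence interval from -0.32 to 0.08 (edgeR quasi-likelihood, adjusted p = 0.736). The neighbour of *Casp4* thus showed no detectable difference, and the interval bounds any loss of *Casp1*.

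Per kilobase of exon, the ratio of *Casp4* to *Casp1* within a library does not depend on the scaling of libraries. It was 0.414, 0.448, 0.383, 0.360 and 0.425 in *Ncr1*+/+ replicates 1 to 5. In *Ncr1*gfp/gfp replicates 1 to 5 it was 0.350, 0.191, 0.268, 0.208 and 0.237. Every *Ncr1*gfp/gfp library was below every *Ncr1*+/+ library, by 0.72 on average on the log2 scale. This ratio was computed after the values of both genes were seen, and it was not tested.

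Other genes around *Casp4* were examined to see whether they moved with it. The table lists 42 other genes within 5 Mb on either side, of which 11 were tested, and none of the 11 had an adjusted p-value under 0.05 (lowest 0.259, edgeR quasi-likelihood). Their log2 fold changes were between -0.19 and 0.45, with a median of 0.09. Among them were *Birc2* and *Birc3*, which encode the inhibitor of apoptosis proteins cIAP1 and cIAP2, at 0.04 and -0.19. *Casp12*, the next gene after *Casp4*, had 0 counts in all 10 libraries.

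**Figure D2:**
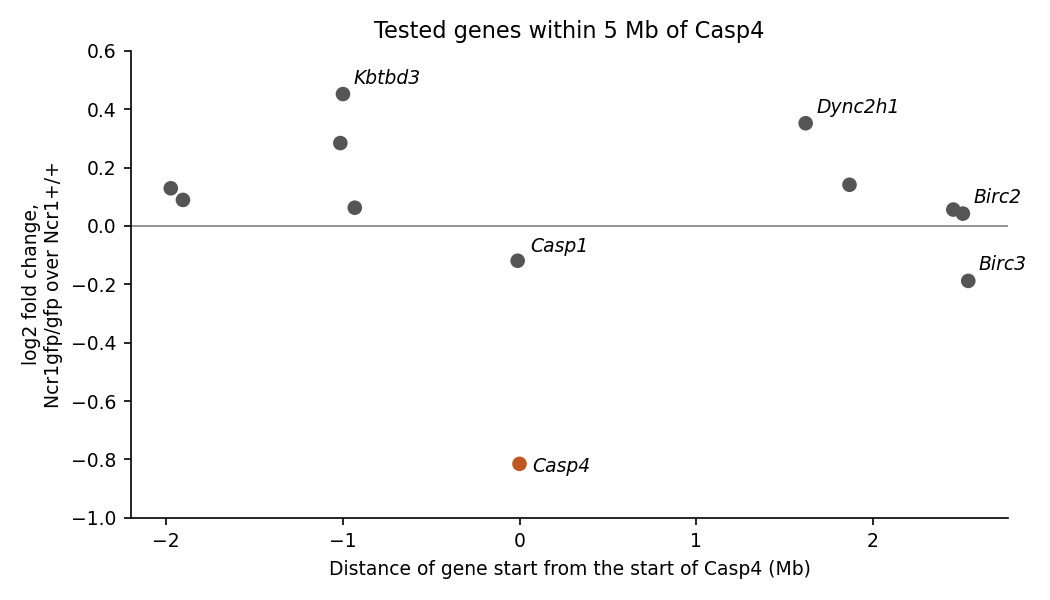
Log2 fold change (*Ncr1*gfp/gfp over *Ncr1*+/+) of the tested genes within 5 Mb of *Casp4*, against the distance of their start from the start of *Casp4* in Mb, with the *Casp4* point in orange. *Casp4* is at -0.82, while the 11 others lie between -0.19 and 0.45, including *Casp1* at -0.12 beside it.

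*Casp8*, the initiator at death receptors, was the highest of the 6. It had 195, 193, 215, 201 and 231 CPM in *Ncr1*+/+ replicates 1 to 5 and 216, 200.2, 210.5, 219 and 198 CPM in *Ncr1*gfp/gfp replicates 1 to 5. The *Ncr1*gfp/gfp values all fell inside the *Ncr1*+/+ range. The log2 fold change was 0.012, with a 95% confidence interval from -0.12 to 0.14 (edgeR quasi-likelihood, adjusted p = 0.969). This was the narrowest interval of the 6.

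*Casp9*, the initiator at the apoptosome, had 45.1, 47.8, 42.8, 48.5 and 42.3 CPM in *Ncr1*+/+ replicates 1 to 5. In *Ncr1*gfp/gfp replicates 1 to 5 it had 49.5, 42.3, 47.9, 43.8 and 43.5 CPM, so that the ranges nearly coincided. The log2 fold change was 0.0019 (95% confidence interval -0.17 to 0.18, adjusted p = 0.997 in the same edgeR test). *Casp9* overlaps the listed gene *Cela2a* on the other strand, which had at most 6 counts in a library.

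*Casp2*, the PIDDosome caspase, ranged from 87.0 to 100.1 CPM in *Ncr1*+/+ and from 87.1 to 107 CPM in *Ncr1*gfp/gfp ILC1s, with medians that lay inside both ranges. The log2 fold change was -0.04 (95% confidence interval -0.19 to 0.11, edgeR quasi-likelihood, adjusted p = 0.917). *Casp6*, the executioner of the group, had 10.6 to 15.6 CPM in *Ncr1*+/+ and 10.99 to 16.9 CPM in *Ncr1*gfp/gfp ILC1s. Its log2 fold change of 0.09 had the widest interval among the genes that were not called, from -0.23 to 0.40 (edgeR quasi-likelihood, adjusted p = 0.905). For these 5 genes, the lowest adjusted p-value in the fit reported here and the 17 other fits was 0.459, for *Casp1*. None of the 5 had an unadjusted p-value under 0.05 in the fit reported here.

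To compare levels between genes, CPM were divided by the exon length. In *Ncr1*+/+ ILC1s the order was *Casp8* at 71.6 ± 5.53, *Casp1* at 37.9 ± 2.73, *Casp2* at 27.1 ± 1.51, *Casp4* at 15.4 ± 1.79, *Casp9* at 11.6 ± 0.715 and *Casp6* at 8.80 ± 1.26 CPM per kilobase (SD, n = 5). No neighbours in this order overlapped. In *Ncr1*gfp/gfp ILC1s, *Casp8* at 72.2 ± 3.26, *Casp1* at 34.9 ± 5.28 and *Casp2* at 26.4 ± 2.34 kept their places, followed by *Casp9* at 11.6 ± 0.80, *Casp6* at 9.33 ± 1.48 and *Casp4* at 8.77 ± 2.71 CPM per kilobase (SD, n = 5). *Casp1* and *Casp2* overlapped here across libraries, as did *Casp9* with *Casp6* and *Casp6* with *Casp4*. *Casp4* was above *Casp9* in all 5 *Ncr1*+/+ libraries and in 1 of the 5 *Ncr1*gfp/gfp libraries. *Casp8* exceeded 93.7% of all tested genes in its mean level per kilobase, whereas *Casp6* exceeded 43.9%.

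**Figure D3:**
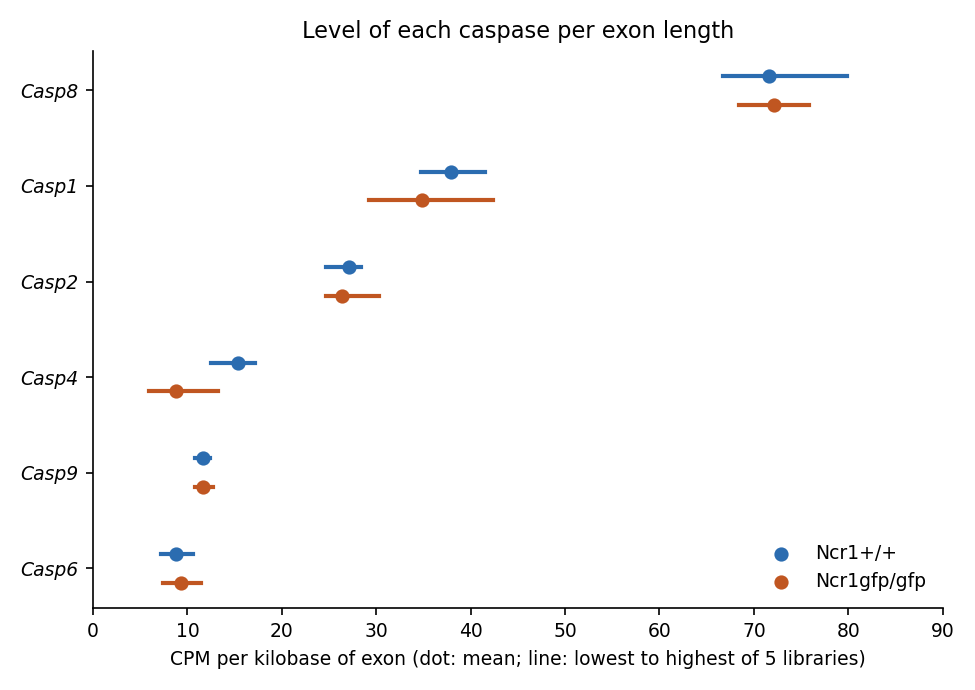
Level of each caspase per exon length (CPM per kilobase of exon, axis from 0), with the mean (dot) and the lowest to highest of 5 libraries (line) for *Ncr1*+/+ (blue) and *Ncr1*gfp/gfp (orange) ILC1s. *Casp4* sits above *Casp9* in *Ncr1*+/+ ILC1s (15.4 against 11.6) and below it in *Ncr1*gfp/gfp ILC1s (8.77 against 11.6), and the ranges of every gene overlap between the genotypes, those of *Casp4* through 1 *Ncr1*gfp/gfp library.

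The 6 genes were also compared with each other across the 10 libraries. Over the 15 pairs, Pearson's r of log2 CPM ran from -0.67 for *Casp6* with *Casp9* to 0.63 for *Casp1* with *Casp4*, and no pair passed the adjustment over 15 (lowest adjusted p = 0.392, permutation test with 100000 resamples). For *Casp6* and *Casp9*, Spearman's rho was -0.60, the permutation p-values were 0.0355 for r and 0.0730 for rho before adjustment, and r was -0.65 without the 2 libraries farthest from the median of *Casp6*. The correlation of *Casp4* with *Casp1* was taken over both genotypes together, and *Casp4* itself differed between them. Its r was 0.22 without the 2 libraries farthest from the median of *Casp1*. Leaving out such libraries narrows the range of *Casp1*, and r did not fall in every pair. It rose from 0.18 to 0.64 for *Casp1* with *Casp6*. For *Casp2* with *Casp4* it rose from 0.11 to 0.61 without the 2 libraries farthest from the median of *Casp2*. The relation of *Casp4* with *Casp1* was not tested within the genotypes, which have 5 libraries each.

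For each caspase, the 3 genes whose log2 CPM followed it most closely over the 10 libraries were looked up among 11462 tested genes. They are named as the highest of many values of Pearson's r, with no test. *Casp4* was followed by *Mdfic* (r = 0.97), *Il10ra* (r = 0.95) and *Ltbp3* (r = 0.95), and these values include the difference between the genotypes. *Ltbp3*, which encodes a protein that binds latent TGF-β, had 15.3, 15.9, 17.2, 12.5 and 16.6 CPM in *Ncr1*+/+ replicates 1 to 5 and 8.51, 3.66, 6.09, 5.89 and 7.62 CPM in *Ncr1*gfp/gfp replicates 1 to 5. Its genotypes did not overlap, and as in *Casp4* the *Ncr1*gfp/gfp replicates 1 and 2 were the highest and the lowest of their genotype. That match follows in part from choosing *Ltbp3* by its r with *Casp4* over the same libraries. *Il10ra*, which encodes the IL-10 receptor α chain, had a log2 fold change of -0.29 with an adjusted p of 0.0501 (edgeR quasi-likelihood test).

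The other 5 were followed by other genes. *Casp1* was closest to *Tmem199*, *Dock2* and *Arhgap17* (r = 0.90, 0.89 and 0.89). *Casp2* was closest to *Cdkn1c*, *Gm28043* and *Cadm1* (r = 0.95, 0.90 and 0.90), of which *Cadm1* averaged only 0.575 CPM. *Casp6* was closest to *Net1*, *Hikeshi* and *Nfyb* (r = 0.93, 0.90 and 0.88). *Casp8* was closest to *Sergef*, *Clec4f* and *Cyb561d2* (r = 0.89, 0.88 and 0.87), and *Casp9* to *Zfp628*, *Vsig10* and *Zfp687* (r = 0.93, 0.91 and 0.90). *Clec4f* averaged only 3.37 CPM and is among the macrophage markers summed below. The part of macrophages in the level of *Casp8* was not tested. Of the 18 genes, only *Ltbp3* had an adjusted p-value under 0.05 for the genotype difference (edgeR quasi-likelihood test).

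Other genes of the caspase pathway passed the test at about the share of all tested genes. In 6 lists of 69 genes, 61 were tested, of which 1 had an adjusted p-value under 0.05 with a lower level in *Ncr1*gfp/gfp ILC1s and 0 with a higher level (edgeR quasi-likelihood test). That is 1.64% of the 61, against 1.35% of all tested genes. Before adjustment, 7 lower and 5 higher genes had a p-value under 0.05, or 19.7% against 11.4% of all tested genes. DESeq2 gave 3 genes after adjustment, or 4.92% against 2.72%. The median log2 fold change of the 61 was 0.0032, against 0.0027 for all tested genes. The gene that passed was *Tnfrsf25*, the death receptor DR3, which binds TL1A. It had 21.4, 11.9, 17.3, 15.2 and 13.4 CPM in *Ncr1*+/+ replicates 1 to 5 and 10.5, 7.54, 8.21, 9.52 and 11.5 CPM in *Ncr1*gfp/gfp replicates 1 to 5, without overlap. It fell by 0.75 on the log2 scale with a standard error of 0.17 (edgeR quasi-likelihood, adjusted p = 0.0311). The adjusted p-value rose above 0.05 in 8 of the 17 other fits, among them those without *Ncr1*+/+ replicate 1, 3 or 4 or *Ncr1*gfp/gfp replicate 2, 3 or 4, where it was between 0.0609 and 0.0997 and the log2 fold change was between -0.76 and -0.62. Without both *Ncr1*+/+ replicate 1 and *Ncr1*gfp/gfp replicate 3 the log2 fold change was -0.57 (adjusted p = 0.179, edgeR).

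None of the 10 genes of platforms and adaptors passed, and their median log2 fold change was 0.01. The highest per exon length were *Ripk1*, a kinase of TNF receptor signaling, *Cflar*, whose product c-FLIP restrains caspase-8, and *Traf2*, with log2 fold changes of 0.08, -0.03 and 0.06. *Cflar* had 214 ± 8.15 CPM in *Ncr1*+/+ and 209 ± 1.56 CPM in *Ncr1*gfp/gfp ILC1s (SD, n = 5 each). Of the 8 genes of inhibitor of apoptosis proteins and their antagonists, none passed (lowest adjusted p = 0.318, edgeR quasi-likelihood). The highest were *Birc6*, *Birc2* and *Birc3*, with log2 fold changes of 0.07, 0.04 and -0.19.

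Each caspase was also set against its partner within a library, as a log2 ratio of counts per kilobase. *Casp8* to *Cflar* was 1.496 ± 0.15 in *Ncr1*+/+ and 1.54 ± 0.06 in *Ncr1*gfp/gfp ILC1s (SD over 5 libraries each, p = 0.556 in an exact permutation test, two-sided). *Casp9* to *Apaf1* was -0.42 ± 0.17 and -0.47 ± 0.18 (exact permutation p = 0.659), and *Casp1* to *Pycard*, the inflammasome adaptor ASC, was 1.12 ± 0.10 and 1.00 ± 0.29 (exact permutation p = 0.421). *Casp9* to *Xiap*, which encodes the inhibitor that binds caspase-9, was -1.18 ± 0.09 in *Ncr1*+/+ and -1.32 ± 0.11 in *Ncr1*gfp/gfp ILC1s (exact permutation p = 0.0397). After adjustment over the 4 ratios, this p-value was 0.159 and the other three were 0.659. The smallest p-value that 5 libraries against 5 allow is 0.00794.

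Of the 21 inflammasome genes, 13 were tested and none passed. *Gsdmd*, which encodes gasdermin D, the substrate of caspase-1 and caspase-4, had 97.6 ± 6.75 CPM in *Ncr1*+/+ and 99.6 ± 3.60 CPM in *Ncr1*gfp/gfp ILC1s (SD, n = 5 each). With *Dpp8* and *Txnip* it was among the 3 highest per exon length, at log2 fold changes of 0.03, -0.03 and 0.19 in this order. *Txnip*, a redox protein that can bind NLRP3, had no overlap between the genotypes, and its adjusted p was 0.0540 (edgeR quasi-likelihood test) and between 0.00634 and 0.0475 in 5 of the other fits. *Pycard* was present at 37.3 ± 3.17 and 37.0 ± 2.44 CPM (SD, n = 5 each). *Il1b* and *Il18*, whose products caspase-1 matures, fell below the filter on low counts, with at most 17 and 10 counts in a library.

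In the remaining lists, none of the 5 necroptosis genes and none of the 17 caspase substrates passed. The highest necroptosis genes were *Tnfaip3*, *Cyld* and *Zbp1*. *Tnfaip3*, which encodes the NF-κB inhibitor A20, had the largest difference of these, with a log2 fold change of -0.46 (edgeR quasi-likelihood, adjusted p = 0.0888). Its adjusted p-value was under 0.05 in 3 other edgeR fits, at 0.00461 with the replicate number as a block, 0.00169 with no filter on low counts and 0.00907 without *Ncr1*+/+ replicate 5. The substrate gene *Lmna*, which encodes lamin A, had 3.13 ± 0.936 CPM in *Ncr1*+/+ and 1.01 ± 0.711 CPM in *Ncr1*gfp/gfp ILC1s (SD, n = 5 each). It rested on 9 to 90 counts per library, and its log2 fold change of -1.64 had an adjusted p of 0.101 (edgeR quasi-likelihood), which was 0.0146 with DESeq2 and 0.0302 without *Ncr1*gfp/gfp replicate 4, where the log2 fold change was -2.14. The highest substrate genes, *Stk4*, *Acin1* and *Rad21*, had log2 fold changes of 0.05, -0.06 and -0.06. The highest death receptor or ligand genes, *Tnfsf10*, *Fasl* and *Tnfrsf1a*, had 0.09, 0.14 and -0.03, and *Fas* itself was low, with 4.83 ± 0.889 and 4.73 ± 1.12 CPM (SD, n = 5 each).

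**Figure D4:**
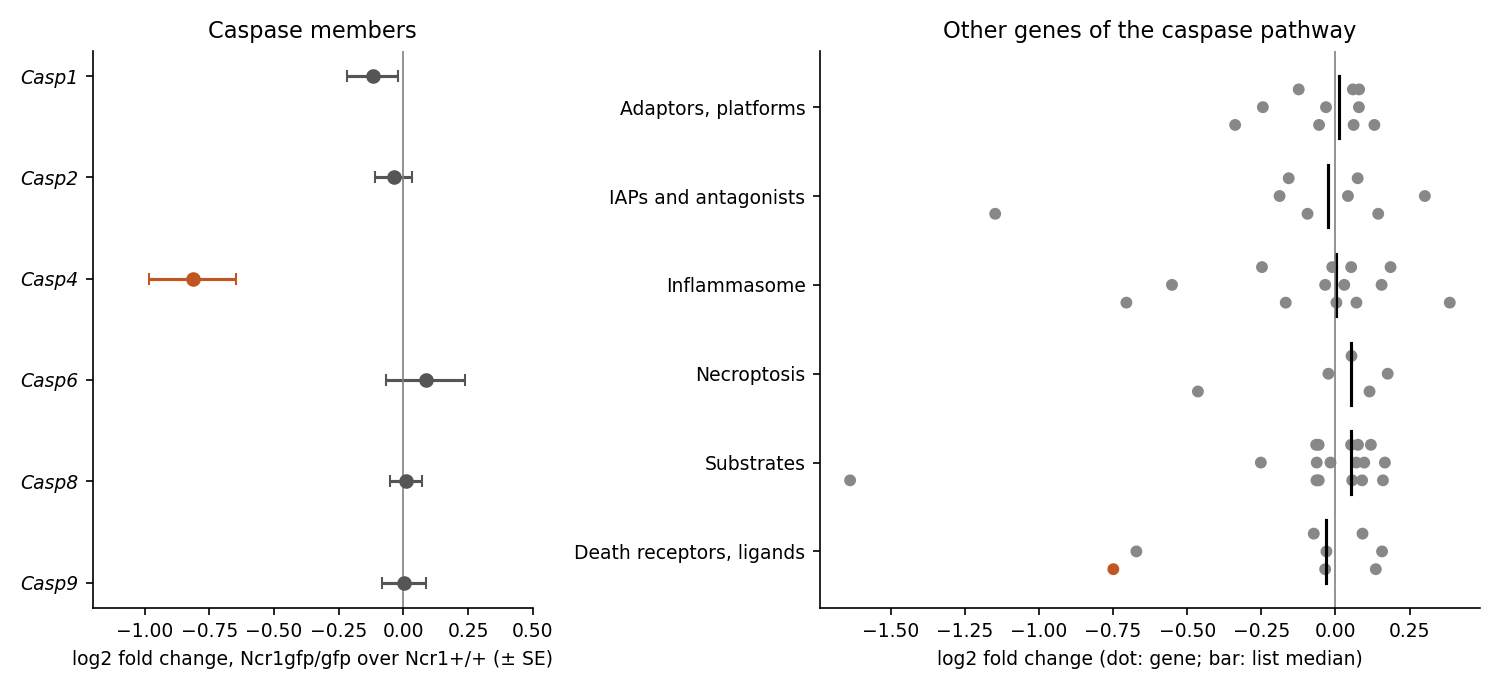
Log2 fold changes (*Ncr1*gfp/gfp over *Ncr1*+/+). Left, the 6 caspases with standard errors, *Casp4* in orange because it was called. Right, each tested gene of the 6 pathway lists (dots) with the list median (bar), *Tnfrsf25* in orange as the only gene with an adjusted p-value under 0.05. All list medians lie between -0.03 and 0.05.

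Markers of other cell types were set beside *Casp4*, because macrophages are rich in inflammatory caspases. The 12 macrophage markers summed to between 16.7 and 82.9 CPM in *Ncr1*+/+ and to between 12.7 and 56.8 CPM in *Ncr1*gfp/gfp ILC1s, and none of the 9 that were tested passed. *Ncr1*+/+ replicate 1 had the lowest macrophage sum of its genotype, 16.7 CPM, and the highest *Casp4* of all libraries, whereas *Ncr1*gfp/gfp replicate 2 had the lowest macrophage sum, 12.7 CPM, and the lowest *Casp4* of all libraries. The 8 T cell markers summed to between 461 and 579 CPM in *Ncr1*+/+ and to between 633 and 835 CPM in *Ncr1*gfp/gfp ILC1s, without overlap, and 3 of the 5 tested were higher (adjusted p under 0.05, edgeR quasi-likelihood). *Cd3g* made up most of these sums, with 442 to 554 CPM and 595 to 793 CPM, a log2 fold change of 0.45. The other genes that passed had larger differences, also without overlap. *Cd3e* had 5.72 ± 1.71 and 21.1 ± 12.7 CPM, and *Cd8a* had 6.69 ± 3.31 and 19.4 ± 9.96 CPM (SD, n = 5 each). Their log2 fold changes were 1.88 and 1.53 (edgeR quasi-likelihood, adjusted p = 0.00235 and 0.0248). *Cd3d*, at 1.04, and *Cd4*, at 0.25, did not pass (adjusted p = 0.0527 and 0.923 in the same test). The sorting gate excluded cells stained for CD3, among others. Neutrophil markers summed to at most 12.3 CPM, B cell markers to at most 6.04 CPM and erythroid markers to at most 9.14 CPM. *Alas2* made up the erythroid sums, as the other 5 of the 6 erythroid markers, all globin genes, were at 0 counts. *Hba-a1* overlaps *Hba-a2* in the listed coordinates, and *Hbb-b1* overlaps *Hbb-bs*. HTSeq's default setting leaves out reads shared by overlapping genes or mapped to several places. The 0 counts of the globin genes therefore cannot be read as absence of red cell RNA. The 8 NK cell markers summed to 470 to 477 CPM and 465 to 519 CPM, and the 6 endothelial markers, mostly *Pecam1*, to 113 to 147 CPM and 128 to 151 CPM. The part of any of these cells in the difference of *Casp4* was not tested.

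**Figure D5:**
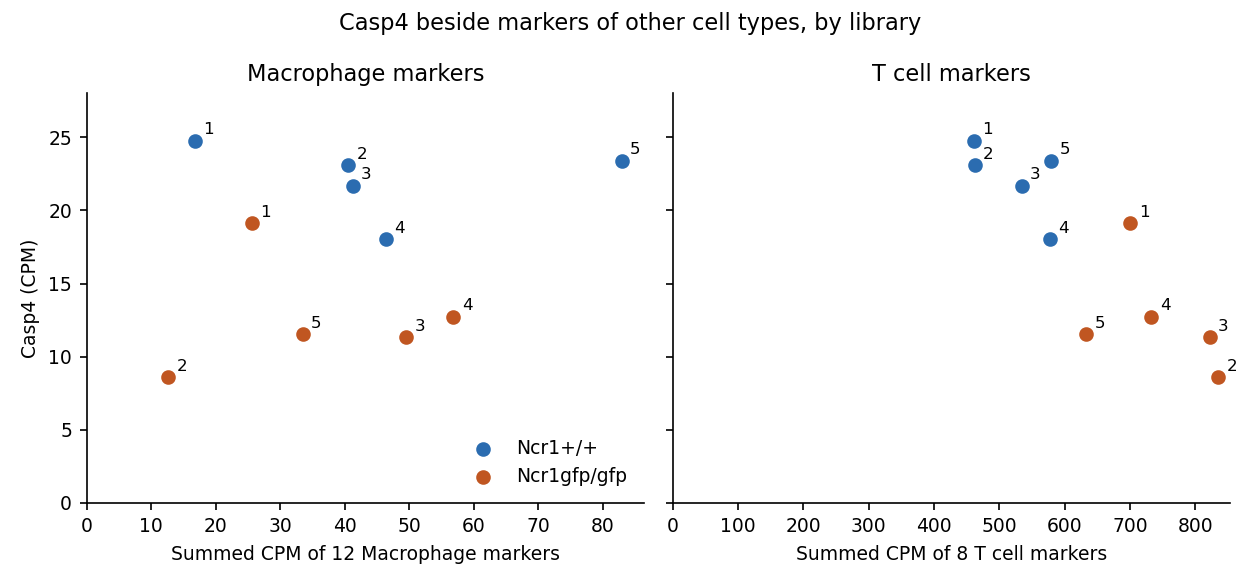
*Casp4* (CPM, axis from 0) against the summed CPM of 12 macrophage markers (left) and 8 T cell markers (right) in each library, numbered by replicate, for *Ncr1*+/+ (blue) and *Ncr1*gfp/gfp (orange) ILC1s. Macrophage sums overlap between the genotypes, whereas T cell marker sums are higher in all *Ncr1*gfp/gfp libraries (633 to 835 against 461 to 579 CPM).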

How the data were processed

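The authors made cDNA from RNA of sorted ILC1s with a SMART-Seq v4 kit, trimmed single reads with Trimmomatic and FASTP, aligned them to mouse with STAR, and obtained gene counts from HTSeq at default parameters. They deposited whole-number counts without normalization, with the exon length of each gene. HTSeq's default setting assumes stranded reads and drops multiply mapped ones, while the kit does not mark strand, so that reads of opposite-strand genes cannot be told apart. The methods name mm10, but the table names no build for its coordinates. All 6 caspase symbols matched RefSeq (GRCm38.p6), used for names only.

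Of the genes with deposited counts, filterByExpr kept 11463. They were normalized by TMM and compared by edgeR 4.0.16 (quasi-likelihood test, R 4.3.3) on genotype alone, with Benjamini-Hochberg adjustment over all tested genes. Genes were called at an adjusted p under 0.05 and a fold above 1.5 or below 0.7, after the study's methods. Log2 CPM used a prior count of 2. Standard errors and 95% intervals were derived from the F statistic. For single ratios, an exact permutation test (two-sided, scipy 1.17.1) was used. The steps were checked on simulated data. The 20 pairs of libraries within a genotype differed by more than sampling noise (chi-square per gene between 9.18 and 24.0). Limits from counts cover counting error only, as PCR copies were not marked by molecular identifiers.

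The caspases and lists were chosen with earlier results of these data known. Named genes are the 6 caspases, list genes with an adjusted p under 0.05, the 3 highest of each list per exon length, partners in ratios, the 3 genes most alike to each caspase and *Ncr1*. *Birc3*, *Casp12*, *Lmna*, *Itga1*, *Fas*, *Gsdmd*, *Il1b*, *Il18*, *Cd3g*, *Pecam1* and *Cela2a* were named, where outside that rule, after their values were seen. The same holds for the other single ILC1 and T cell markers, *Il2rb*, *Tbx21*, *Cxcr6*, *Cd200r1*, *Klrb1c*, *Cd3d*, *Cd3e*, *Cd4* and *Cd8a*. The neighbours of *Casp4*, its ratio to *Casp1* and the marker sums beside it were added after the data were examined. Alternatives were DESeq2 1.42.0, limma-voom (limma 3.58.1) with quality weights, upper-quartile normalization, no filter, at least 10 counts in every library, the replicate number as a block, and fits without single libraries or 2 libraries. Some genes of the pathway are not reported here. Sequences, flow cytometry and human data were not used here.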

Additional observations from a re-analysis of the deposited data

Results flagged for a closer look

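In 64 groups of 5 libraries (the caspases, the named pathway genes and the 4 ratios in each genotype), the highest or lowest library was compared with its nearest neighbour. In 3 groups this gap exceeded 0.710 of the whole range, and chance gives about 1 in 20 groups, or 3.2. *Stk4*, which encodes a kinase that caspases cleave, was 514 CPM in *Ncr1*+/+ replicate 3, against 473 CPM in the next library. *Tnfsf10*, which encodes the death ligand TRAIL, reached 845 CPM in replicate 1 of the *Ncr1*gfp/gfp libraries, with 807 CPM in the next. *Txnip* lay at 733 CPM in replicate 3 of the *Ncr1*gfp/gfp libraries, with 773 CPM in the nearest. None of the 6 caspases was among them, and no cause was tested.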

How the results depend on the processing

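*Casp4* stayed called in 16 of the 17 other fits, with adjusted p-values between 0.000754 and 0.0898 over the 17 (edgeR's quasi-likelihood test, DESeq2 and limma-voom). Without *Ncr1*+/+ replicate 1 and *Ncr1*gfp/gfp replicate 3 its log2 fold change was -0.74, and 0 caspases were called. The deviations of same-numbered libraries had correlations between -0.02 and 0.04 over the 5 pairs. Of the 10 libraries, 1 correlated best with its own number. These values cannot exclude that mice or preparations were matched, which the labels do not state. With the replicate number as a block, the log2 fold change of *Casp4* was -0.85 (edgeR, adjusted p = 0.00894), 1 caspase and 87 genes in all were called, and the block gave 2 pathway genes.

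All genes called were 84, or 131 with no filter on low counts, 155 with no limit on the fold, 126 with DESeq2 and 60 to 98 with each library left out. Pathway genes with an adjusted p-value under 0.05 were 1, but 3 with DESeq2, 2 with no filter, with at least 10 counts in every library or with upper-quartile normalization, 0 without *Ncr1*+/+ replicate 1 and *Ncr1*gfp/gfp replicate 3, and 0 to 2 with each library left out. *Casp8* and *Casp9*, at log2 fold changes of 0.012 and 0.0019, changed sign with limma-voom (-0.0092 and -0.0029), without the 2 libraries named above (-0.014 and -0.021) and with single libraries left out (-0.014 to 0.054 and -0.031 to 0.028). The 4 ratios kept their sign and stayed above the threshold with each library left out. Their ranges were 0.02 to 0.10 for *Casp8* to *Cflar*, -0.12 to -0.01 for *Casp9* to *Apaf1*, -0.17 to -0.10 for *Casp9* to *Xiap* and -0.20 to -0.02 for *Casp1* to *Pycard*. The cause of these moves was not tested. *Casp6* and *Casp4* had the fewest counts of the 6, with 173 to 301 and 188 to 524 per library. The part of depth in their standard errors, 0.15 and 0.17, was not tested.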

Other observations

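Of the inflammasome genes below the filter on low counts, *Nlrp6*, which encodes an inflammasome sensor, had 0 counts in all 5 *Ncr1*+/+ libraries, whereas the *Ncr1*gfp/gfp libraries 1 to 5 had 14, 0, 24, 0 and 2. *Mefv*, which encodes the sensor pyrin, was counted 14 and 4 times in *Ncr1*gfp/gfp replicates 3 and 5 and 0 counts in the other 8 libraries. *Naip1*, which encodes a sensor of bacterial secretion needles, had 2, 0, 0, 0 and 5 counts in *Ncr1*+/+ libraries 1 to 5, and 0, 19, 3, 22 and 11 in *Ncr1*gfp/gfp libraries 1 to 5. *Nlrp3*, the best-known inflammasome sensor, had 2, 25, 4, 1 and 17 in *Ncr1*+/+ libraries 1 to 5, and 0, 0, 10, 10 and 3 in *Ncr1*gfp/gfp libraries 1 to 5. *Ncr1*gfp/gfp replicate 3, with the highest counts of *Nlrp6* and *Mefv*, also had the highest sums of hepatocyte markers (60.9 CPM) and neutrophil markers (12.3 CPM, against at most 2.62 CPM in the other libraries). Without it, *Nlrp6* had at most 14 counts and *Mefv* at most 4. The filter on low counts left these genes out. In the edgeR quasi-likelihood fit without that filter, their adjusted p-values were 0.0855 for *Nlrp6*, 0.259 for *Mefv*, 0.373 for *Naip1* and 0.806 for *Nlrp3*. The genes were named after their values were seen.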
